A study of Mus musculus with 9 samples.

Results

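The Wnt signalling system of mouse osteoblasts and endothelial cells (ECs) was described through 43 genes, taken by name from a deposited gene count table of 50686 genes. They were all 19 Wnt ligands, all 10 Frizzled receptors, the co-receptors Lrp5 and Lrp6, the alternative receptors Ror1, Ror2 and Ryk, the R-spondin receptors Lgr4, Lgr5 and Lgr6, the 4 R-spondins, and the secretion genes Porcn and Wls. All 43 genes were found in the table, and 28 of them had enough reads to be among the 15531 genes that were tested.

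Wnt ligands are lipid-modified by the acyltransferase Porcupine (Porcn) and carried to the cell surface by Wntless (Wls). A ligand that joins a Frizzled receptor to Lrp5 or Lrp6 blocks the complex in which GSK3 marks β-catenin for degradation, whereas Ror1, Ror2 and Ryk receive Wnt signals by routes that need not involve β-catenin. R-spondins bind Lgr receptors and keep the ubiquitin ligases Rnf43 and Znrf3 from removing Frizzled proteins from the membrane. In bone, Wnt signalling through Lrp5 and Lrp6 supports bone formation by osteoblasts, and in vessels Fzd4 is known as the receptor of Norrin.

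The study asked how transcription changes when osteoblasts are treated with SB216763, a small-molecule inhibitor of GSK3, and compared the treated cells with ECs. RNA-Seq libraries came from 3 groups of 3. The osteoblasts were MC3T3-E1, a line derived from mouse calvaria, either as controls or after exposure to SB216763 at 10 μM over 14 days, and the reference group was mouse pulmonary ECs that had no treatment, which the study isolated by FACS. The osteoblast libraries therefore share 1 line, and the strain and age of the animals behind the ECs were not given in the sources used here. Nothing states that replicates were separate cultures or animals, so p-values measure the spread between these libraries, which may be technical. For the controls no vehicle or culture time was recorded here, so drug, vehicle and culture time cannot be told apart.

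Library totals ran from 30990107 to 68946333 counts, so that 3 counts in a library corresponded to between 0.0435 and 0.0968 CPM, the depth-scaled unit used for levels below after scaling by the trimmed mean of M values (TMM). Summed over 7 osteoblast markers, the level was 43920 to 59350 CPM in controls, 8068 to 8339 CPM after SB216763 and 45.1 to 64.5 CPM in ECs. In both osteoblast groups nearly all of it was Col1a1 and Col1a2. Their means were 24510 and 27830 CPM in controls and 2732 and 5322 CPM in treated cells. The other markers all had lower means after SB216763, by unequal steps. Runx2 went from 157.6 to 116.4 CPM, Sp7 from 297.6 to 25.98, Ibsp from 151.7 to 11.4 and Alpl from 34.01 to 0.4681. Bglap libraries had 3.82 to 4.733 CPM in controls and 1.525 to 2.528 CPM in treated cells. The sum over 7 endothelial markers was 3.23 to 4.03 CPM in controls, 4.46 to 5.05 CPM after SB216763 and 6320 to 6506 CPM in ECs. The treated osteoblasts thus did not carry endothelial markers at an EC level. Between the osteoblast groups this sum moved with Vwf, at a mean of 1.16 CPM in controls and 2.42 CPM in treated cells. In the same order Cdh5 had 0.585 and 0.599 CPM, Pecam1 0.759 and 0.788, and Tek 0.0745 and 0.127. Emcn had 0.222 in both, Kdr 0.508 and 0.420, and Tie1 0.369 and 0.207. In ECs, 5 leukocyte markers summed to 45.7 to 47.6 CPM, nearly all of it Cd68. There 5 fibroblast and mesothelial markers summed to 135 to 141 CPM, most of it the mesothelial gene Msln at a mean of 120 CPM. The rest of that list did not go with Msln: Pdgfra had 18.2 CPM and Dcn 0.301 CPM, and Tcf21 and Wt1 held 1 count each. Markers of mural cells moved with the treatment: 5 of them summed to 3119 to 3270 CPM in controls, 888 to 899 CPM after SB216763 and 22.7 to 23.9 CPM in ECs, with Acta2 at a mean of 2915 CPM in controls and 144 CPM in treated cells and Pdgfrb at 254 and 746 CPM. The epithelial marker Epcam had 0 counts in every library. Whether the other cell types these markers stand for had a part in the levels below was not tested, and in bulk RNA fewer cells of a type and less RNA per cell cannot be told apart.

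After SB216763, the Wnt genes that fell most were ligands and an R-spondin, and the gene that rose most was the co-receptor Lrp5. Of the 28 tested genes, 1 rose (Lrp5) and 5 fell (Wnt4, Wnt6, Wnt10a, Wnt11 and Rspo2) by at least 4-fold at an edgeR quasi-likelihood false discovery rate (FDR, Benjamini-Hochberg over all tested genes) under 0.01. Over all tested genes, 3.81% rose and 5.84% fell by this rule. Wnt11 had enough reads for testing only in controls, so against controls it could only be called lower, here and in ECs. Without the fold requirement 7 of the 28 rose and 18 fell, against 32.9% and 32.0% of all tested genes, and Fzd1, Lrp6 and Ryk were not called. In percent, 64.3% of the tested Wnt genes fell. Their median log2 fold change was -0.71, beside 0.01 over all tested genes. The control and treated libraries did not overlap for 27 of the 28 genes, all but Ryk, beside 73.2% of all tested genes.

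ECs and control osteoblasts differed more widely in the same genes. By the 4-fold rule 5 genes were higher in ECs (Wnt5a, Fzd4, Fzd6, Fzd9 and Lgr6) and 14 were lower (Wnt4, Wnt5b, Wnt6, Wnt10a, Wnt10b, Wnt11, Fzd1, Fzd5, Ror1, Ror2, Lgr4, Rspo2, Rspo3 and Porcn), where 13.5% of all tested genes were higher and 9.87% lower. Without the fold requirement 6 were higher and 20 lower, against 39.0% and 37.9% of all tested genes, with Wnt2b and Lrp6 not called. The median was -2.19, beside 0.01 over all tested genes. EC and control libraries overlapped for Lrp6 among the 28, and 84.0% of all tested genes had libraries that did not overlap.

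Between treated osteoblasts and ECs, 11 genes were higher in the treated osteoblasts (Wnt4, Wnt5b, Wnt6, Wnt9a, Wnt10a, Wnt10b, Fzd1, Ror1, Ror2, Rspo3 and Porcn) and 5 were lower (Wnt5a, Fzd4, Fzd6, Fzd9 and Lgr6) by the 4-fold rule, against 10.3% and 15.0% of all tested genes. At the FDR threshold alone the counts were 20 higher and 5 lower, against 38.3% and 40.3%, with Wnt11, Fzd2 and Fzd8 not called. The median was 1.58, beside -0.02 over all tested genes, and the libraries of the 2 groups did not overlap for any of the 28 genes, as for 85.4% of all tested genes. Each pair of these comparisons shares a group of libraries, so values are given side by side and no agreement between comparisons was computed.

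**Figure D1:**
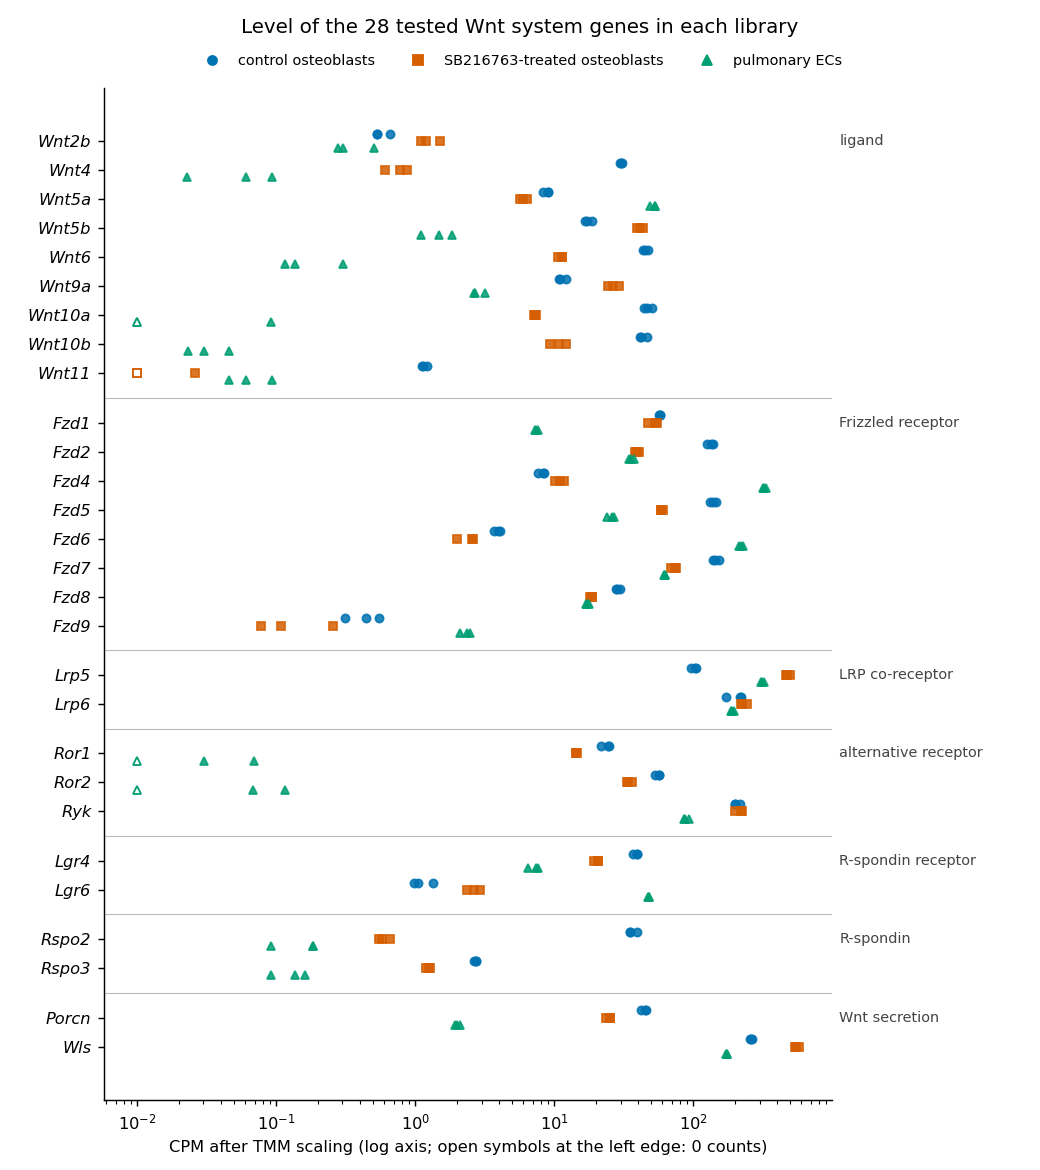
Level of each of the 28 tested Wnt system genes in each of the 9 libraries, as CPM after TMM scaling on a log axis, with circles for control osteoblasts, squares for SB216763-treated osteoblasts and triangles for pulmonary ECs; open symbols at the left edge stand for libraries with 0 counts. Wnt4 and Rspo2 lie near 30 to 37 CPM in controls and under 1 CPM in the other groups, Lrp5 is highest after SB216763, and Fzd4, Fzd6 and Lgr6 are highest in ECs.

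Wnt4, a ligand of kidney and gonad development that can signal with or without β-catenin, was nearly lost. The gene lies at chr4:137277489-137299726 on the plus strand of GRCm38. Its level stood at 29.5, 30.0 and 30.6 CPM in controls, at 0.602, 0.782 and 0.872 CPM after SB216763, and at 0.0229, 0.0609 and 0.0927 CPM in ECs. The groups did not overlap. The treated level was 39.6-fold lower than the control level (log2 fold change -5.31 ± 0.10, n = 3 and 3, edgeR quasi-likelihood Benjamini-Hochberg adjusted p = 3.81e-16). Here and below, ± after a log2 value is its size divided by the square root of the quasi-likelihood F statistic. That is not a standard error of the fit and can understate the error where a group holds few counts. ECs were lower again, with a log2 difference from controls of -8.93, which rests on 7 counts in ECs.

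Wnt6 and Wnt10a are neighbours on chromosome 1, on the same strand and 6.2 kb apart, and Wnt10a is known for its role in tooth and hair development. Wnt10a was measured at 46.5, 50.2 and 44.5 CPM in controls, at 7.34, 7.19 and 7.33 CPM after SB216763, and at 0, 0.0914 and 0 CPM in ECs. The treated libraries lay within 0.2 CPM of each other and far below the controls (-2.69 ± 0.08, edgeR quasi-likelihood Benjamini-Hochberg adjusted p = 1.09e-13). The ECs held 3 Wnt10a counts in all against 6984 in controls, a ratio of 1892 with a 95% interval of 647 to 9178, which covers counting error only.

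Wnt6 had 44.9, 47.0 and 43.5 CPM in controls, 11.4, 11.3 and 10.6 CPM after SB216763, and 0.137, 0.305 and 0.116 CPM in ECs. The fall after treatment was 4.07-fold (-2.03 ± 0.07, edgeR quasi-likelihood Benjamini-Hochberg adjusted p = 2.27e-13), which placed Wnt6 just inside the 4-fold rule. It left the rule when scaling used library size alone (-1.82) and without SB216763 replicate 3 (-2.00 after rounding), with its FDR call kept in both.

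Wnt10b, a ligand that favours bone over fat formation, had 41.4, 41.8 and 46.2 CPM in controls, 10.9, 9.33 and 12.1 CPM after SB216763, and 0.0458, 0.0305 and 0.0232 CPM in ECs. Its libraries separated as cleanly as those of Wnt6, but its log2 fold change of -2.00 ± 0.08 (edgeR quasi-likelihood Benjamini-Hochberg adjusted p = 1.65e-12) fell just short of the 4-fold rule before rounding. It passed that rule with limma-voom, DESeq2 and the fit of only these groups, and without any 1 of control replicates 1 and 2, SB216763 replicates 1 and 3 and EC replicates 1 and 2. Against controls, ECs were lower by a log2 difference of -10.21, which rests on 4 counts in ECs.

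Wnt11, a ligand linked to cell movement in the embryo, was low in controls, at 1.12, 1.13 and 1.22 CPM. After SB216763 it was at 0, 0.0261 and 0 CPM, and in ECs at 0.0458, 0.0609 and 0.0927 CPM. The treated group held 1 count against 168 in controls, a ratio of 126 with a 95% counting interval of 22.2 to 4986 (edgeR quasi-likelihood Benjamini-Hochberg adjusted p = 5.69e-09). Part of its exon sequence is shared with a pseudogene on the opposite strand.

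The ligands that rose after SB216763 were Wnt5b, Wnt9a and Wnt2b, none of them by 4-fold. Wnt5b, a close relative of Wnt5a, had 17.2, 18.7 and 16.6 CPM in controls, 41.5, 43.2 and 39.1 CPM in treated cells and 1.49, 1.10 and 1.83 CPM in ECs. Its libraries were highest in the treated group and lowest in ECs, without overlap (1.23 ± 0.07 over controls, edgeR quasi-likelihood Benjamini-Hochberg adjusted p = 3.22e-10). Wnt9a, a ligand of joint formation, had 11, 10.9 and 12.1 CPM in controls, 26.6, 29.4 and 24.3 CPM in treated cells and 3.18, 2.68 and 2.66 CPM in ECs. The order of the groups was that of Wnt5b, and the rise over controls was 2.38-fold (1.25 ± 0.08, edgeR quasi-likelihood Benjamini-Hochberg adjusted p = 4.80e-10). Wnt2b averaged 0.575 CPM in controls, 1.27 CPM in treated cells and 0.362 CPM in ECs, a rise of 1.17 ± 0.23 on the log2 scale after treatment (edgeR quasi-likelihood Benjamini-Hochberg adjusted p = 0.000280). Both Wnt5b and Wnt9a thus moved away from the EC level.

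Wnt5a, the best known ligand of β-catenin-independent signalling, was the single tested ligand that was higher in ECs than in controls. It had 9.01, 8.34 and 8.96 CPM in controls, 5.93, 6.33 and 5.64 CPM after SB216763, and 53.3, 53.2 and 49.0 CPM in ECs. The treated libraries lay below all controls (-0.55 ± 0.07, edgeR quasi-likelihood Benjamini-Hochberg adjusted p = 5.07e-06), and the ECs lay 5.92-fold above them (2.56 ± 0.06). An antisense gene overlaps Wnt5a, and its reads cannot be told apart from those of Wnt5a because the strand setting of the counting was not given in the sources used here. The same limit holds for Wnt11, Fzd5, Fzd6 and Rspo3, each of which shares exon sequence with a gene on the opposite strand.

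**Figure D2:**
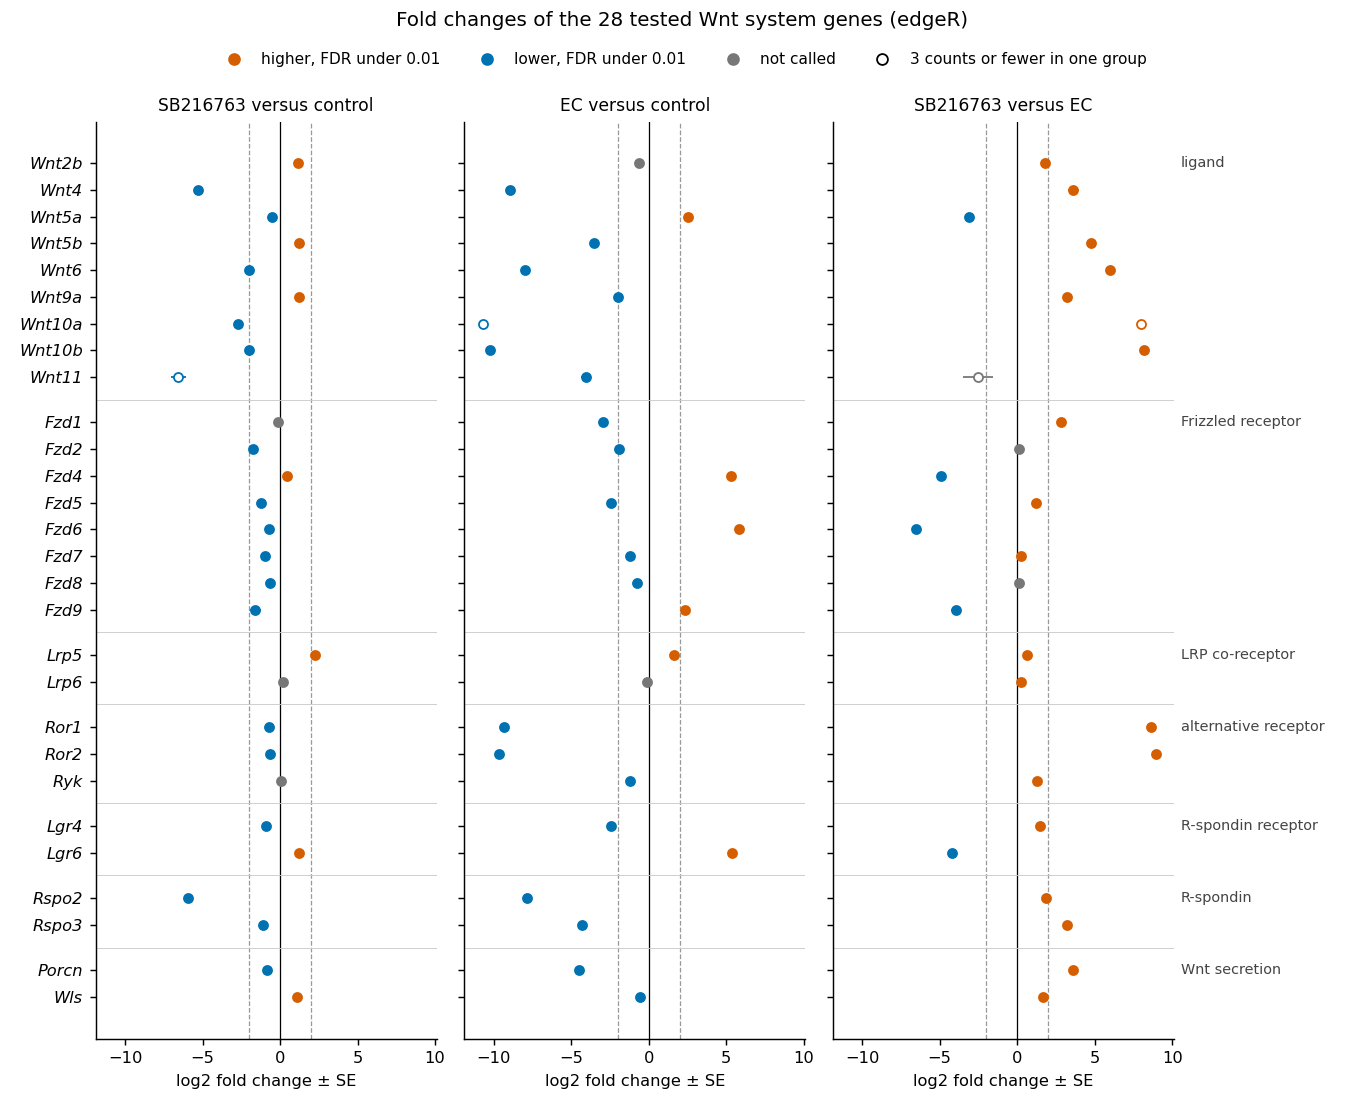
Log2 fold change for the 28 tested genes in the 3 comparisons, from the edgeR quasi-likelihood fit with 3 libraries per group. Bars, labelled SE on the axis, are the size of the change divided by the square root of the F statistic. They are not a standard error of the fit. Colours give the call at an FDR under 0.01, and dashed lines mark 4-fold. Open symbols mark fitted values that rest on 3 or fewer counts in one group. After SB216763 the genes furthest left are Wnt11, Rspo2 and Wnt4, and Lrp5 is the one gene to the right of the 4-fold line.

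The sequence just upstream of the ligand genes was read from RefSeq promoter windows on GRCm38.p6 and is shown for ligands that changed at least 2-fold after SB216763 and whose RefSeq start site lay within 10 bases of the start in the annotation used for lengths. Each run is the 250 bases before the start site, 5′ to 3′ on the gene's own strand, and letters that match a searched motif are in capitals: CTTTGAT or CTTTGAA (TCF/LEF factors, which act with β-catenin), TGTGGT (RUNX factors) and GGCGCC (SMAD1), on both strands. The windows are Wnt6 at chr1:74771642-74771891 on the plus strand, Wnt10b at chr15:98778151-98778400 on the minus strand and Wnt11 at chr7:98834862-98835111 on the plus strand, which fell, and Wnt5b at chr6:119544348-119544597 on the minus strand and Wnt9a at chr11:59306680-59306929 on the plus strand, which rose.
Wnt6: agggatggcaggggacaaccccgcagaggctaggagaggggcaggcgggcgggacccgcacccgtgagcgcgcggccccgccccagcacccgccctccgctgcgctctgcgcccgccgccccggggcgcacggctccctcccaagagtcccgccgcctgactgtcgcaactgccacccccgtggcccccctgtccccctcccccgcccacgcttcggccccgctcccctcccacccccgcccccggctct
Wnt10b: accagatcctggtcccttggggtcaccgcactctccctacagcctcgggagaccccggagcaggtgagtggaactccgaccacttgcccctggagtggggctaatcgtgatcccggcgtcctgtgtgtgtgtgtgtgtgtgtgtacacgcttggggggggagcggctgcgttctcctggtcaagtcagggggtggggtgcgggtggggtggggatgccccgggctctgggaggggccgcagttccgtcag
Wnt11: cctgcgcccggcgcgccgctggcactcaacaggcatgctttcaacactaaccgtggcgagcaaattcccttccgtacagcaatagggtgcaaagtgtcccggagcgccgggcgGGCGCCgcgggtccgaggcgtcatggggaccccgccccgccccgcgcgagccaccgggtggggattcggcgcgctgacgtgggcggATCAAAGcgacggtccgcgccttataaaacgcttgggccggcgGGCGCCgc
Wnt5b: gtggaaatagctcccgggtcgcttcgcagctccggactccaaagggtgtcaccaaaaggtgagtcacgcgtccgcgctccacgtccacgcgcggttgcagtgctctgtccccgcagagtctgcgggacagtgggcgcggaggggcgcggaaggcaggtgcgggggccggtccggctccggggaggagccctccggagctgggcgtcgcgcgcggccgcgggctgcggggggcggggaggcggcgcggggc
Wnt9a: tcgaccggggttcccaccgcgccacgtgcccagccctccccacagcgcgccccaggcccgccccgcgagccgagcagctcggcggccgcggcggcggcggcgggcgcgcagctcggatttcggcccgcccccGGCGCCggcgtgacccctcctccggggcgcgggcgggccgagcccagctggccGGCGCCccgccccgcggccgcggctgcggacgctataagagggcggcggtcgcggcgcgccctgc

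The Wnt11 window held CTTTGAT on the opposite strand, seen as ATCAAAG with its first base at -51 from the start site, and GGCGCC at -137 and -8. Wnt9a, which rose, held GGCGCC at -118 and -65, and the windows of Wnt6, Wnt10b and Wnt5b held none of the 4 motifs. RefSeq windows were matched for 29 of the 43 genes, with 1 window per gene, the one nearest the annotated start. CTTTGAT was in 1 of the 29 (Wnt11) and in 3.21% of all 32851 windows, CTTTGAA in none of the 29 and in 4.46% of all, TGTGGT in 1 of the 29 (Ror1) and in 14.0% of all, and GGCGCC in 11 of the 29 and in 9.59% of all. Of the genes with a window, GGCGCC was in 4 of the 10 that fell after SB216763 and in 3 of the 6 that rose. The shares over all windows were not matched for base composition. GGCGCC is made of G and C alone, and the printed windows were 66.8 to 84.4% G and C. Whether GGCGCC is more frequent than base composition gives was not tested. A match is a run of letters and not a bound site. The genes without a window were Wnt5a, Wnt7b, Wnt8a, Wnt10a, Fzd2, Fzd3, Fzd6, Fzd8, Lrp5, Lrp6, Lgr5, Rspo2, Rspo3 and Porcn.

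To compare genes with each other, CPM were divided by the summed exon length in kilobases. Summed over the 19 ligands, this level was 71.1 ± 1.74 (SD, n = 3) CPM per kb in controls, 36.0 ± 1.25 after SB216763 and 8.38 ± 0.301 in ECs. In controls the pool was led by Wnt6 at 29.0% ± 0.623 of the ligand sum, Wnt10a at 26.8% ± 1.10 and Wnt10b at 17.9% ± 1.32. The library ranges of Wnt6 and Wnt10a did not overlap, at 28.2 to 29.4% and 25.6 to 27.8%. After SB216763 the lead passed to Wnt5b at 43.1% ± 0.665 and Wnt9a at 22.3% ± 1.36, with Wnt6 at 14.0%. In ECs Wnt5a alone made up 79.1% ± 1.84, followed by Wnt9a at 10.2% and Wnt5b at 6.65%, whose library ranges of 9.60 to 11% and 4.93 to 8.54% did not meet. The pool thus had a different leading ligand in each group, and the treated pool did not take up the leading ligand of the ECs, as Wnt5a was 2.12% of it.

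**Figure D3:**
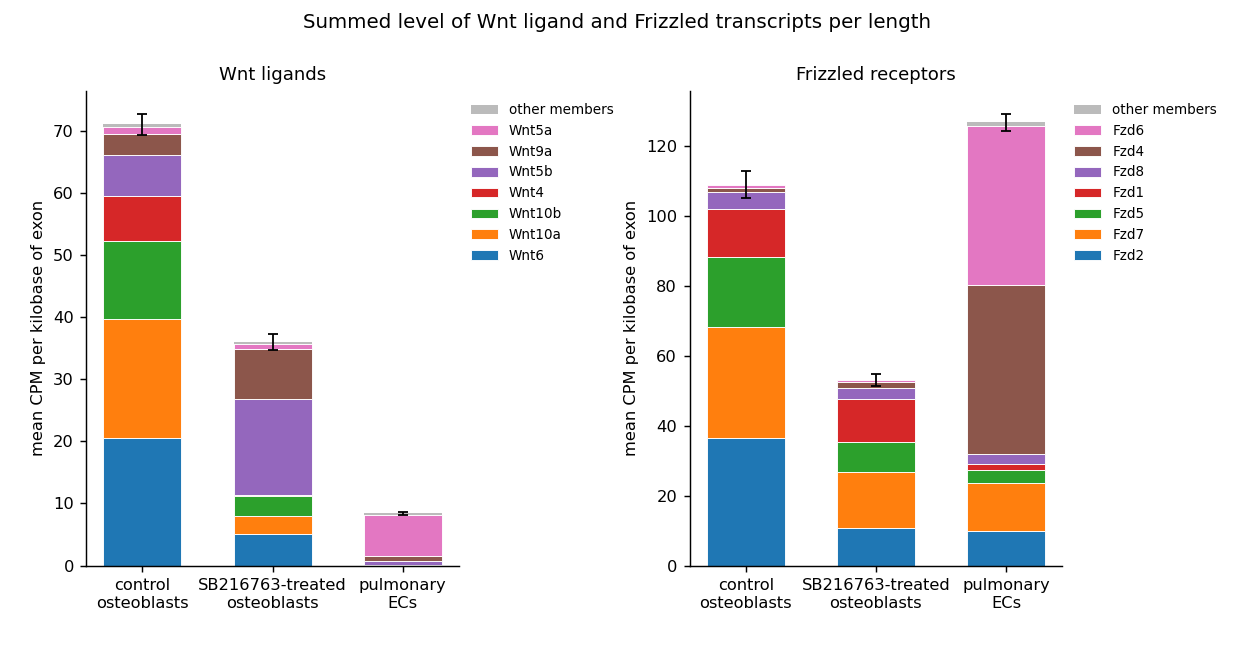
Mean level of Wnt ligand transcripts (left) and Frizzled transcripts (right) in CPM per kilobase of exon, stacked by gene for each group of 3 libraries; error bars are the SD of the summed level. The ligand sum falls from 71.1 in controls to 36.0 after SB216763 and 8.38 in ECs, while the Frizzled sum is 109, 53.1 and 127, with Fzd4 and Fzd6 filling most of the EC bar.

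Of the 8 Frizzled receptors tested, 6 fell after SB216763 (Fzd2, Fzd5, Fzd6, Fzd7, Fzd8 and Fzd9), Fzd4 rose and Fzd1 was not called, against 32.0% of all tested genes that fell. None of the 8 moved past 4-fold, and they had a median log2 fold change of -0.85. Summed per length, Frizzled transcripts were at 109 ± 3.81 CPM per kb in controls, 53.1 ± 1.72 after SB216763 and 127 ± 2.48 in ECs.

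Fzd2 fell most among the well-expressed receptors. It had 140, 135 and 125 CPM in controls, 39.2, 40.8 and 38.2 CPM after SB216763 and 34.6, 35.9 and 37.5 CPM in ECs. Treated libraries lay below every control and just above the ECs, with a fall of 3.38-fold (-1.76 ± 0.05, edgeR quasi-likelihood Benjamini-Hochberg adjusted p = 4.25e-14). Against ECs the difference of 0.13 ± 0.05 was not called at the threshold used, but was at 0.21 with library-size scaling and at 0.16 in the fit of only these groups. Fzd7, a receptor of stem and progenitor cells, had 153, 138 and 144 CPM in controls, 73.6, 75.1 and 69.2 CPM in treated cells and 63.0, 62.3 and 61.2 CPM in ECs. All treated libraries were below the controls and above the ECs (-1.0 ± 0.05 against controls, edgeR quasi-likelihood Benjamini-Hochberg adjusted p = 2.61e-11), and the log2 difference from ECs was 0.22 ± 0.05.

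Fzd5, an essential receptor of placental vessel growth, had 145, 132 and 138 CPM in controls, 59.0, 58.6 and 61.1 CPM in treated cells and 27.1, 26.2 and 23.9 CPM in ECs. The treated level lay between the other groups without overlap (-1.22 ± 0.05 against controls, edgeR quasi-likelihood Benjamini-Hochberg adjusted p = 4.44e-12). Fzd8, with 29.6, 28.5 and 27.8 CPM in controls, had 18.2, 18.8 and 18.7 CPM in treated cells and 17.1, 16.9 and 17.9 CPM in ECs. Its fall was smaller (-0.63 ± 0.05, edgeR quasi-likelihood Benjamini-Hochberg adjusted p = 1.53e-08), and the treated level differed from that of ECs by 0.10 ± 0.05, which was not called except at 0.18 with library-size scaling. Fzd2, Fzd7 and Fzd8 were thus the Frizzled genes whose treated level came closest to the EC level.

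Fzd1 had 56.4, 57.8 and 57.7 CPM in controls, 53.4, 54.8 and 47.4 CPM after SB216763, and 7.38, 7.31 and 7.65 CPM in ECs. Its treated libraries lay just below the controls, and the difference of -0.14 ± 0.05 was not called (edgeR quasi-likelihood Benjamini-Hochberg adjusted p = 0.0196), though it was at -0.19 without SB216763 replicate 2. The ECs were 7.68-fold lower than controls (-2.94 ± 0.06, edgeR quasi-likelihood Benjamini-Hochberg adjusted p = 2.15e-16).

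Fzd4 and Fzd6 were far higher in ECs than in either osteoblast group. Fzd4 had 7.62, 8.30 and 8.41 CPM in controls, 11.1, 10.2 and 11.7 CPM in treated cells, and 323, 333 and 318 CPM in ECs. The rise after treatment was 1.36-fold (0.44 ± 0.07, edgeR quasi-likelihood Benjamini-Hochberg adjusted p = 1.63e-05) and left Fzd4 29.6-fold below the ECs. Fzd6, which takes part in planar cell polarity, had 3.94, 4.04 and 3.68 CPM in controls, 2.58, 2.61 and 1.99 CPM in treated cells, and 220, 226 and 213 CPM in ECs. Here the treated libraries moved below the controls (-0.71 ± 0.10, edgeR quasi-likelihood Benjamini-Hochberg adjusted p = 8.26e-06), while ECs were 56.0-fold above controls (5.81 ± 0.07). Together Fzd4 at 38.1% ± 0.179 and Fzd6 at 35.9% ± 0.407 led the EC receptor pool, with Fzd6 first at 38.5% against 36.6% for Fzd4 when the longest transcript served as length. In controls Fzd2 at 33.3% ± 1.06 and Fzd7 at 29.4% ± 0.775 led, and after treatment Fzd7 at 30.2% ± 0.295 and Fzd1 at 23.3% ± 1.05.

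Fzd9 was the lowest tested receptor in osteoblasts, at 0.441, 0.546 and 0.313 CPM in controls and 0.258, 0.0782 and 0.109 CPM after SB216763. ECs had 2.11, 2.35 and 2.48 CPM, above all osteoblast libraries (2.35 ± 0.23 over controls, edgeR quasi-likelihood Benjamini-Hochberg adjusted p = 9.84e-08). The fall after treatment (-1.61 ± 0.39, edgeR quasi-likelihood Benjamini-Hochberg adjusted p = 0.00147) rested on 16 counts in the treated group, was -1.30 and no longer called without SB216763 replicate 2 (edgeR adjusted p = 0.0113), and passed the 4-fold rule at -2.25 without SB216763 replicate 1.

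The co-receptors parted. Lrp5, at chr19:3584828-3686564 on the minus strand of GRCm38, is known from loss-of-function and gain-of-function mutations that lower and raise bone mass. It had 103, 95.6 and 105 CPM in controls, 465, 493 and 473 CPM after SB216763 and 313, 309 and 323 CPM in ECs. Every treated library lay above every EC library, and every EC library above the controls. The rise after treatment was 4.72-fold (2.24 ± 0.05, edgeR quasi-likelihood Benjamini-Hochberg adjusted p = 1.60e-15), and the treated level was 1.51-fold above the EC level (0.60 ± 0.05).

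Lrp6 had 220, 173 and 218 CPM in controls, 225, 221 and 242 CPM after SB216763 and 186, 196 and 190 CPM in ECs. Control replicate 2 lay below the ECs and the other controls above them, and the treated libraries lay just above all controls. Neither the difference of 0.18 ± 0.07 after treatment nor that of -0.09 ± 0.07 between ECs and controls was called, although the latter was at -0.21 without control replicate 2. Between treated cells and ECs it was 0.27 ± 0.07 (edgeR quasi-likelihood Benjamini-Hochberg adjusted p = 0.00361), a call that was lost without SB216763 replicate 3 or EC replicate 1. The share of Lrp5 in the pair, per length, went from 41.2% ± 2.20 in controls to 74.5% ± 1.26 after treatment and stood at 69.9% ± 0.843 in ECs, so that Lrp6 led in controls and Lrp5 in the other groups.

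Ror1 and Ror2, receptor tyrosine kinases that bind Wnt5a, were near absent from ECs. Ror2 had 56.7, 53.1 and 57.0 CPM in controls, 33.8, 36.3 and 33.6 CPM after SB216763, and 0.0687, 0 and 0.116 CPM in ECs. Ror1 had 24.3, 21.8 and 24.8 CPM in controls, 14.4, 14.3 and 14.7 CPM in treated cells, and 0, 0.0305 and 0.0695 CPM in ECs. Both fell after treatment by similar steps, Ror1 by 0.70 and Ror2 by 0.68 on the log2 scale (edgeR quasi-likelihood Benjamini-Hochberg adjusted p = 3.52e-07 and 6.06e-08), and stayed far above the ECs, where they had 4 and 8 counts in all.

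Ryk, an atypical receptor kinase, had 198, 216 and 198 CPM in controls, 223, 222 and 200 CPM after SB216763 and 85.6, 93.1 and 87.9 CPM in ECs. Control and treated libraries overlapped, with a difference of 0.07 ± 0.05 that was not called. ECs were 2.30-fold lower than controls (-1.20 ± 0.06, edgeR quasi-likelihood Benjamini-Hochberg adjusted p = 7.62e-12), and Ryk made up 99.9% of the 3 alternative receptors per length there, against 72.3% in controls.

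Of the R-spondins, Rspo2 fell most after SB216763. It lies at chr15:43020794-43170826 on the minus strand of GRCm38 and had 35.3, 39.7 and 35.2 CPM in controls, 0.545, 0.574 and 0.654 CPM after SB216763 and 0.183, 0.0914 and 0.185 CPM in ECs. Controls stood apart from all other libraries, with a fall of 61.9-fold after treatment (-5.95 ± 0.11, edgeR quasi-likelihood Benjamini-Hochberg adjusted p = 1.90e-16). The treated libraries still exceeded the ECs by 1.88 ± 0.30 on the log2 scale. Rspo3, which endothelium makes in several organs, had 2.74, 2.64 and 2.74 CPM in controls, 1.26, 1.28 and 1.20 CPM in treated cells, and 0.137, 0.0914 and 0.162 CPM in ECs. It fell by 1.12 ± 0.14 on the log2 scale after treatment (edgeR quasi-likelihood Benjamini-Hochberg adjusted p = 3.31e-06), and no library of these ECs reached an osteoblast library. The summed R-spondin level per length went from 8.07 ± 0.478 CPM per kb in controls to 0.546 ± 0.0255 after treatment and 0.0722 ± 0.0218 in ECs, and Rspo2 from 89% to 21.2% of it in the osteoblasts.

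Among the R-spondin receptors, Lgr4 was highest in control osteoblasts and Lgr6 in ECs. Lgr4 had 39.3, 36.6 and 39.2 CPM in controls, 20.6, 20.8 and 19.5 CPM after SB216763 and 7.63, 6.43 and 7.39 CPM in ECs. The groups stepped down without overlap (-0.92 ± 0.06 after treatment, edgeR quasi-likelihood Benjamini-Hochberg adjusted p = 8.71e-10). Lgr6 had 0.977, 1.35 and 1.04 CPM in controls, 2.35, 2.63 and 2.91 CPM in treated cells and 47.3, 48.3 and 48.0 CPM in ECs. It stepped the other way, 2.33-fold up after treatment (1.22 ± 0.13, edgeR quasi-likelihood Benjamini-Hochberg adjusted p = 4.86e-07) and 42.3-fold up in ECs (5.40 ± 0.09). Per length, Lgr4 was 97.5% ± 0.536 of the 3 receptors in controls and 90.0% ± 1.25 after treatment, and Lgr6 was 85.2% ± 1.26 of them in ECs.

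The secretion genes moved in opposite directions after treatment. Wls had 259, 265 and 256 CPM in controls, 575, 552 and 537 CPM after SB216763 and 175, 176 and 173 CPM in ECs. The treated libraries were the highest and the ECs the lowest (1.09 ± 0.04 after treatment, edgeR quasi-likelihood Benjamini-Hochberg adjusted p = 2.44e-12). Porcn had 45.4, 45.1 and 42.1 CPM in controls, 23.5, 25.1 and 25 CPM in treated cells and 1.99, 2.10 and 1.92 CPM in ECs. It fell 1.81-fold after treatment (-0.85 ± 0.05, edgeR quasi-likelihood Benjamini-Hochberg adjusted p = 3.58e-10) and was 22.1-fold lower in ECs than in controls (-4.47 ± 0.07). The level of Wls per length depends on the length used, being 29.6 CPM per kb in controls with all annotated exons and 73.1 with the longest transcript, and Wls led Porcn either way.

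The 15 untested genes held at most 12 counts in any group of 3 libraries. They were Wnt1, Wnt2, Wnt3, Wnt3a, Wnt7a, Wnt7b, Wnt8a, Wnt8b, Wnt9b, Wnt16, Fzd3, Fzd10, Lgr5, Rspo1 and Rspo4, and Wnt3a and Fzd10 had 0 counts in all 9 libraries. In 2 of the 4 close pairs of ligand genes on the genome, an untested ligand sat beside a tested one: Wnt1 lies 11.7 kb from Wnt10b on chromosome 15, and Wnt3a lies 16.2 kb from Wnt9a on chromosome 11. Wnt3 and Wnt9b, 24.3 kb apart on chromosome 11, were both untested. When the filter on low counts was dropped, Wnt7a was called higher in ECs, where it had 11 counts against 0 in either osteoblast group, at least 4.51-fold above controls against the floor of 3 counts over the group. Wnt1, with 12 counts in ECs and 0 after SB216763, was likewise called, at least 3.68-fold higher. In that fit none of the other 13 untested genes was past the 4-fold rule.

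Other genes of the pathway are given from 4 lists named for their place in it, which share 6 genes between them. Of the 27 intracellular components and nuclear factors, all tested, 10 rose and 7 fell after SB216763 at an FDR under 0.01, with a median log2 fold change of 0.03, and 1 passed the 4-fold rule. The shares, 37.0% and 25.9%, were near those of all tested genes, 32.9% and 32.0%, and library-size scaling moved the counts to 16 and 5. That gene was Tcf7, the TCF factor that is itself a target of the pathway, at 79.2, 75.9 and 72.6 CPM in controls and 1.86, 1.67 and 1.83 CPM in treated cells (-5.41 ± 0.08, edgeR quasi-likelihood Benjamini-Hochberg adjusted p = 1.48e-17). The β-catenin gene Ctnnb1 rose 1.17-fold (0.23 ± 0.05), and Gsk3a and Gsk3b were not called. These 3 genes were named after their values were seen.

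Of 12 feedback and target genes of β-catenin signalling, 9 were tested, 1 of which, Sp5, had 0 counts in both osteoblast groups and passed the filter through ECs. Of the other 8, 7 fell and none rose, with a median of -4.28, where 32.0% of all tested genes fell. Besides Tcf7, the genes that fell by 4-fold were Axin2, Nkd2, Rnf43 and Myc. Axin2, a scaffold of the destruction complex, had 26.5, 24.4 and 27.2 CPM in controls and 0.831, 0.912 and 0.980 CPM in treated cells (-4.83 ± 0.10, edgeR quasi-likelihood Benjamini-Hochberg adjusted p = 4.07e-16). Rnf43, the ligase that R-spondins restrain, had 26.6, 21.8 and 23.1 CPM in controls and 0.172, 0.339 and 0.409 CPM in treated cells, 76.6-fold less. Its partner Znrf3 was not called (0.08 ± 0.06). Nkd2, which binds Dishevelled, held 1 count after treatment against 235 in controls, a ratio of 176 with a 95% counting interval of 31.2 to 6963, and Myc, the growth regulator, fell 13.3-fold. Nkd2 had enough reads for testing only in controls and could only be called lower.

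Of 18 secreted or surface antagonists, 10 were tested, 3 rose and 5 fell, with a median of -1.09, beside 32.9% and 32.0% of all tested genes. The 5 that fell did so by 4-fold: Sfrp2 by 14.2-fold and Wif1 by 17.9-fold, which bind Wnt ligands, Dkk2 by 65.7-fold, which binds Lrp5 and Lrp6, the Wnt-cleaving protease Trabd2b by 7.98-fold and Apcdd1 by 4.40-fold. The Dkk2 value rests on 4 counts in treated cells against 383 in controls. Apcdd1 was no longer past 4-fold without SB216763 replicate 3 (-1.99) or with library-size scaling (-1.93). Frzb, another ligand-binding protein, had 0 counts in controls and 12 after treatment, at least 5.36-fold higher against a floor of 3 counts over the group. It passed the filter through ECs, was filtered out in the fit of only the control and treated groups, which left 2 antagonists higher, and had a fitted value of 1.72, short of 4-fold, with a prior count of 2. Of 19 other receptor components, 16 were tested, 2 rose and 5 fell, with a median of 0.04, and Rnf43 and Musk fell past 4-fold. The share that fell, 31.3%, was near that of all tested genes. Musk, the receptor kinase of the neuromuscular junction, had 93 counts in controls and 0 after treatment, at least 23.2-fold lower against the same floor. Like Nkd2, Musk had enough reads for testing only in controls and could only be called lower.

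In ECs compared with controls, the same lists gave 4 higher and 16 lower of the 27 intracellular genes, 2 higher and 7 lower of the 9 targets tested, 5 higher and 5 lower of the 10 antagonists, and 8 higher and 6 lower of the 16 other receptor components, at an FDR under 0.01, beside 39.0% higher and 37.9% lower of all tested genes. The 37.5% of receptor components that were lower was near that background. Sp5, Frzb and Sost had 0 counts in controls, and Tspan12 and Celsr1 had 3 and 4. These genes passed the filter on low counts through ECs and could only be called higher. Nkd2 and Musk passed it through controls and could only be called lower. Tspan12, which works with Fzd4 in Norrin signalling, had 2151 counts in ECs and 3 in controls, a ratio of 882 with a 95% counting interval of 301 to 4281. Tspan12, Sost and Celsr1 were named after their values were seen.

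**Figure D4:**
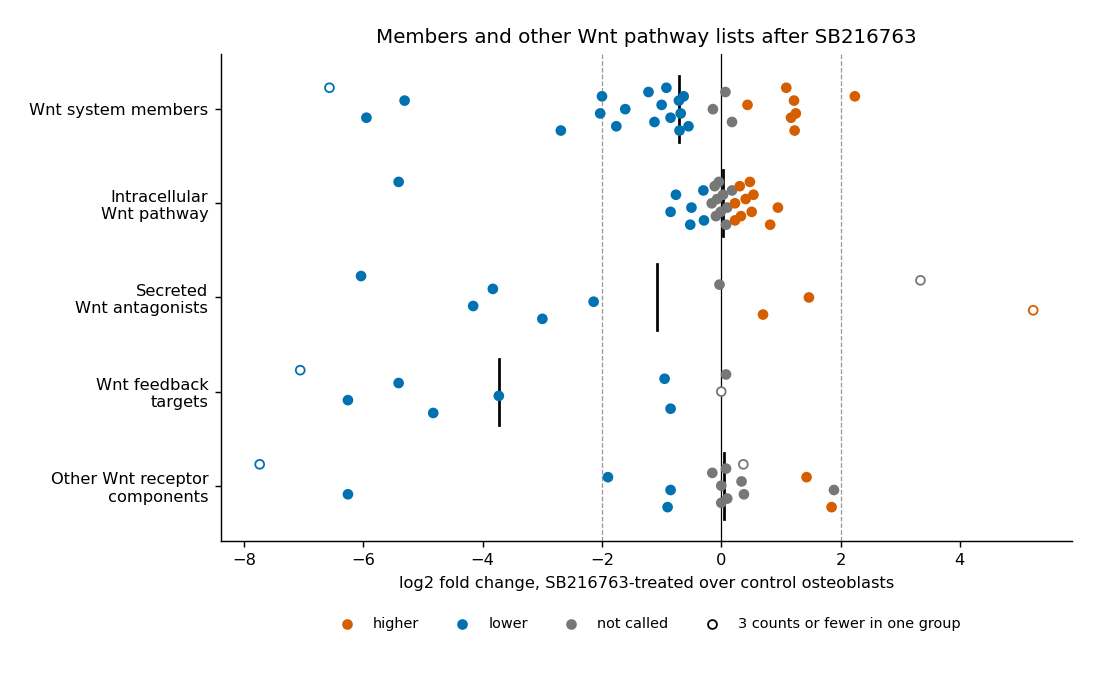
Log2 fold change after SB216763 of the 28 tested Wnt system genes and of 4 other Wnt pathway lists, one point per tested gene, with the list median as a vertical bar and dashed lines at 4-fold; open symbols rest on 3 or fewer counts in control or treated osteoblasts. The medians are -0.71 for the ligand and receptor genes, 0.03 for intracellular genes, -1.09 for antagonists, -3.73 for the 9 feedback targets, Sp5 included at 0, and 0.04 for other receptor components.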

How the data were processed

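RNA-Seq libraries from 3 control and 3 SB216763-treated MC3T3-E1 osteoblast samples and 3 pulmonary EC samples were analysed from 1 table of whole-number counts per gene that the authors deposited without normalization. Per the submitters' processing notes the reads were aligned with STAR 2.5.3a to GRCm38; the annotation release, the counter and its strand setting were not given in the sources used here. Every column was matched to a labelled sample. Symbols, positions and exon lengths came from GENCODE M21 on GRCm38, in which 50376 of 50686 identifiers had a symbol. Genes kept by filterByExpr were tested in 1 fit of all 9 libraries with TMM scaling and edgeR 4.0.16 quasi-likelihood tests (glmQLFit, glmQLFTest, R 4.3.3), with Benjamini-Hochberg adjustment over all 15531 genes. Fold changes used a prior count of 0.125, and calls an FDR under 0.01 with or without a 4-fold change (2 on the log2 scale), the cutoffs of the study. The 43 genes and the lists were chosen with earlier results of these data known. Of the 43, genes past the fold rule in any comparison or with a mean of at least 10 CPM in a group were given library by library, and of the other lists the genes past the fold rule after SB216763 were named. Ratios involving 1 to 3 counts carry exact 95% intervals, and a floor of 3 counts over the group stood in for 0; both cover counting error only. No 2 libraries of a group agreed within sampling noise. Tested on simulated data, edgeR recovered 200 of 200 genes changed by 3 on the log2 scale in the SB216763 versus control design, with 0 false calls among 15227 genes. A call there needed both the FDR and the 4-fold rule. The changed genes lay above 1 CPM in controls, and all genes were given 1 common spread. Calls by the FDR alone were not tested in this way. DESeq2 1.42.0 and limma-voom (limma 3.58.1) served as other tools, beside other scalings, filters and prior counts, the fit of only the groups compared, a replicate block, other thresholds, and leaving out each library. For the other lists, library-size scaling, no filter, the fit of only the groups compared and a prior count of 2 were added after seeing the data.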

Additional observations from a re-analysis of the deposited data

How the results depend on the processing

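The main limits are 3 libraries per group, of unstated independence, and low counts. Counts were low for Wnt11 and Fzd9 after SB216763, and for Dkk2, Nkd2, Musk and Frzb of the other lists. In ECs they were low for Wnt4, Wnt6, Wnt10a, Wnt10b, Wnt11, Ror1, Ror2, Rspo2 and Rspo3. With 1 in place of 2 as the log2 threshold, 6 genes were higher and 10 lower after SB216763, and 17 were higher in treated osteoblasts than in ECs. Leaving out each library in turn kept the count of genes past 4-fold after SB216763 at 1 higher and moved the lower count between 5 and 7, through Wnt10b, Fzd9 and Wnt6. No other receptor component was higher past 4-fold, and leaving out each library gave 0 to 1, with Celsr1 gained without SB216763 replicate 3. In alternatives for the lists chosen after seeing the data, library-size scaling gave 2 such genes, Prickle2 and Celsr1, and at the FDR threshold 7 higher receptor components in place of 2, 16 higher and 5 lower intracellular genes in place of 10 and 7, and 1 higher target in place of 0. The fit of only the groups compared and a prior count of 2 each left 0 antagonists higher past 4-fold in place of 1, Frzb. Over the alternatives, 5 to 7 targets and 4 to 6 antagonists were lower past 4-fold. Notum, on both lists, was gained with no filter and without SB216763 replicate 1, SB216763 replicate 3 or EC replicate 2. The target Nkd1 was gained with no filter. Prickle2, Celsr1, Notum and Nkd1 were named after their values were seen. Scaling by library size alone shifted the median of all genes by 0.20 after SB216763 and by 0.13 between ECs and controls, turned the uncalled differences of Fzd1 to 0.06 and of Lrp6 in ECs to 0.03, and took Wnt6 out of the 4-fold rule. Calls of single genes also turned on 1 library for Fzd1, Fzd9 and Wnt11 (SB216763 replicate 2) and for Lrp6 (control replicate 2, SB216763 replicate 3 or EC replicate 1). Scaling by library size alone called Lrp6 and Ryk higher after SB216763, at 0.38 and 0.28, and Fzd2 and Fzd8 higher in treated osteoblasts than in ECs, at 0.21 and 0.18. Replicate numbers did not pair the samples, as correlations of deviations ran from -0.0392 to 0.124. With the replicate block, 1 gene was higher and 6 lower past 4-fold after SB216763, 5 and 14 in ECs against controls, and 11 and 5 between treated osteoblasts and ECs; Wnt10b was the gene gained, and no count of the 43 genes at the FDR threshold changed. Of the log2 fold changes under all alternatives, 1577 kept their direction and side of the FDR threshold, 13 gained a call, 3 lost one and 2 turned sign. The causes were not tested.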
